A study of Homo sapiens with 3 samples.

Results

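The genes described here are 10 genes of melanocyte differentiation and pigment synthesis: MITF, TYR, TYRP1, DCT, SILV (the array's name for PMEL), MLANA, GPR143, MC1R, PAX3 and EDNRB. They were chosen by name, as every probe that is not a control and carries 1 of these gene names, which gave 21 of the 41000 probes on the array and 10 of its 30982 gene names. Expression was measured on Agilent 1-colour arrays in 1205Lu, a human metastatic melanoma line that came from a lung metastasis in a mouse xenograft of WM793. Original monolayer cells (OM) had 14 days in standard medium with 10% FCS, melanoma bodies (MB) had 14 days in hESC medium with 20% KO serum replacement, and new monolayer cells (NM) came from such bodies (14 days of hESC medium) returned for 10 days to standard medium, with remaining bodies removed. Each population is 1 array of 1 line, so there are no replicate cultures, no test between populations was possible and no p-value is given. Medium and growth form differ together between OM and MB and cannot be told apart.

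Melanin is made in melanosomes, lysosome-related organelles of the pigment cell. TYR starts the synthesis from tyrosine, while DCT and TYRP1 act later in the branch that gives black and brown pigment. MITF, the factor that directs the melanocyte lineage, binds a short DNA element in the promoters of several of these genes, and its own transcription is driven by PAX3, SOX10 and the cAMP signal that the melanocortin receptor MC1R sends.

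The element was looked for as the letters CATGTG, on either strand, from 250 bases before to 50 bases after each transcription start in the RefSeq promoter table (GRCh38.p14). Of the 10 genes 9 had promoters in that table (13 in all), and 6 of these genes had a match: TYR, TYRP1, DCT, GPR143, MC1R and EDNRB. A match was present in 11.1% of all 35116 promoters listed there. The longer string TCATGTGCT, which contains CATGTG, was present in 0.216% of all promoters (76 of 35116) and in 1 promoter each of 4 pigment genes, TYR, TYRP1, DCT and GPR143. MITF, PAX3 and MLANA had no match to either string in these windows. The following windows, 1 per gene, hold the longer string and are shown because 3 of their genes, TYR, TYRP1 and GPR143, had no probe well above background on any of the arrays. They read 5′ to 3′ on the gene's strand, with CATGTG or its reverse complement in capitals.
TYR, chr11:89177759-89177788, plus strand, 104 bases before the start: agaaaagtcagtCATGTGcttttcagagga
TYRP1, chr9:12693229-12693258, plus strand, 144 bases before the start: ttggaagggaatCATGTGctgatcaagtcc
DCT, chr13:94479799-94479828, minus strand, 134 bases before the start: tgcactttgggtCATGTGctaatgatgagg
GPR143, chrX:9765863-9765892, minus strand, 33 bases before the start: cagcccgcccagCACATGacccaggcaggc

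Signals are given in arbitrary units (a.u.) before scaling. Ratios were taken after scaling each array to 3 housekeeping genes, GAPDH, ACTB and HSP90AA1. Feature Extraction marks each spot as well above background or not. The lowest signal among probes so marked was 20.9 a.u. (OM), 19.4 a.u. (MB) and 29.1 a.u. (NM), and a dimmer probe has only that bound. All 21 probes were printed once and none was saturated or an outlier. Of them, 12 were well above background on all 3 arrays, 2 on only 1 or 2, and 7 on none. The only repeated measurement is that of probes printed in 10 spots, from which the technical SD of a log2 ratio was taken at each brightness. This SD is taken over spots within each array, so it leaves out variation between cultures, labelling reactions, arrays and scalings. Across the 6 scalings run, for example, the log2 ratio of MITF in MB over OM ranged from 0.49 to 0.79.

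**Figure D1:**
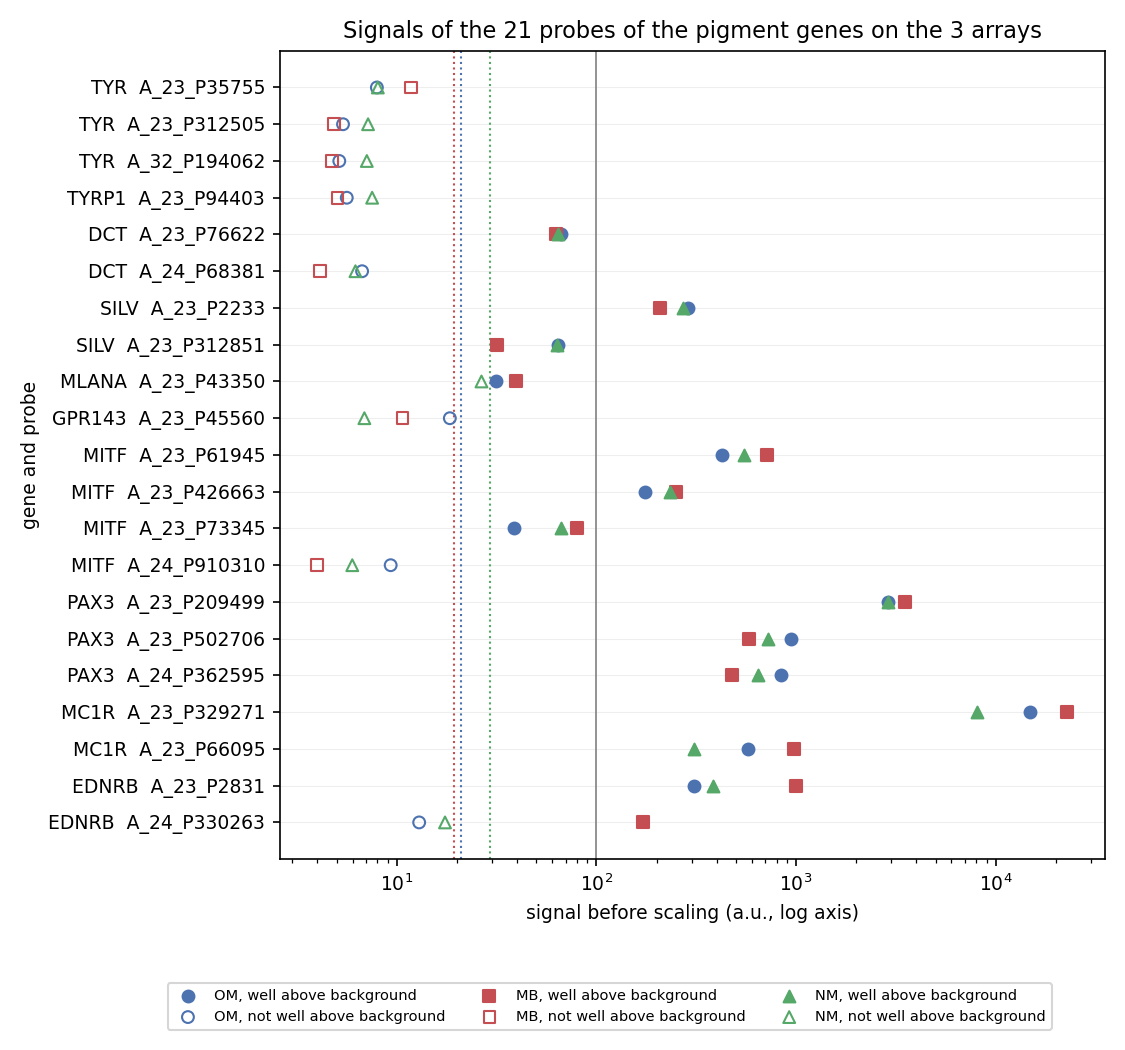
Signal before scaling (a.u., log axis) of each of the 21 probes, 1 row per probe, on OM (circles), MB (squares) and NM (triangles). Filled symbols are well above background and open ones are not, dotted lines mark the lowest signal well above background on each array in its colour, and the grey line marks 100 a.u. TYR, TYRP1 and GPR143 lie left of the dotted lines on all 3 arrays, and 12 probes, of MITF, DCT, SILV, MC1R, PAX3 and EDNRB, are filled on all 3.

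The enzymes of melanin synthesis were at or near background in all 3 populations. Tyrosinase (TYR), the first enzyme, has 3 probes, and their signals ranged from 5.15 to 7.94 a.u. (OM), 4.74 to 11.8 a.u. (MB) and 7.07 to 8.03 a.u. (NM). None was well above background on any array. TYRP1, a melanosomal protein that acts in the later steps, gave 5.61 a.u. (OM), 5.04 a.u. (MB) and 7.52 a.u. (NM) with its 1 probe, again not well above background. With all signals of these genes below the bounds, no ratio can be given, and transcript below those bounds was not detectable. DCT, dopachrome tautomerase, was the exception among the enzymes. Its probe A_23_P76622 was well above background at 66.7 a.u. (OM), 62.8 a.u. (MB) and 64.1 a.u. (NM). The 3 values lay within 2 technical SDs of each other, with log2 ratios of −0.05 between MB and OM (technical SD 0.22) and −0.18 between MB and NM (SD 0.20). The other DCT probe, A_24_P68381, which spans 818 bases of the genome and so crosses an exon junction, stayed at background on each array. It gave 6.70 a.u. (OM), 4.13 a.u. (MB) and 6.20 a.u. (NM). The detection of DCT thus rests on a low signal from 1 of 2 probes.

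The coding probes of TYR and DCT are shown in lower case because they stand for a gene not detected and a gene detected at a low level. Probe positions are in hg17, as deposited.
TYR A_23_P312505, chr11:88564166-88564225, plus strand: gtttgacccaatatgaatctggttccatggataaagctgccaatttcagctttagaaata
DCT A_23_P76622, chr13:93893747-93893806, minus strand: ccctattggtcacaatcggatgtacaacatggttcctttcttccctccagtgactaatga

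Of the melanosome proteins, SILV was the one measured most firmly, and it was lowest in MB. SILV (PMEL) forms the fibrils on which melanin is laid down. Its brighter probe, A_23_P2233, gave 286 a.u. (OM), 209 a.u. (MB) and 271 a.u. (NM). After scaling MB was 1.34-fold lower than OM (log2 ratio −0.42, technical SD 0.13) and 1.45-fold lower than NM (−0.53, SD 0.12). OM and NM were within 2 technical SDs of each other. The second probe, A_23_P312851, gave 64.3, 31.7 and 63.3 a.u. on OM, MB and NM, and was 1.98-fold lower on MB than on OM and 2.22-fold lower than on NM. It had the same order but lay under the 100 a.u. that a called difference needed.

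MLANA, a melanosome protein known as a melanoma antigen, was dim, at 31.3 a.u. (OM), 39.5 a.u. (MB) and 26.5 a.u. (NM), where it was not well above background. Its log2 ratio of MB over OM was 0.37 with a technical SD of 0.56, so OM and MB were not told apart. GPR143, a receptor in the melanosome membrane, was at background on each array, with 18.4 a.u. (OM), 10.7 a.u. (MB) and 6.88 a.u. (NM).

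MITF was higher in both MB and NM than in OM, by less than 2-fold on its 2 brighter probes. Its brightest probe, A_23_P61945, gave 423 a.u. (OM), 718 a.u. (MB) and 551 a.u. (NM). MB exceeded OM by 1.73-fold (log2 ratio 0.79, technical SD 0.08) and NM exceeded OM by 1.48-fold (0.57, SD 0.08), while MB exceeded NM by only 1.17-fold. OM was lowest on this probe and MB highest, with a log2 ratio of 0.23 between MB and NM (SD 0.07). A second probe, A_23_P426663, gave 174 a.u. (OM), 250 a.u. (MB) and 234 a.u. (NM), or 1.47-fold for MB over OM and 1.53-fold for NM over OM. On this probe MB and NM were within 2 technical SDs of each other. The third, A_23_P73345, in coding sequence, was dimmer, at 38.7, 79.8 and 66.8 a.u. on OM, MB and NM, and a log2 ratio of 1.08 between MB and OM (technical SD 0.42). All 3 probes put OM lowest. The fourth probe, A_24_P910310, which the array annotates to another MITF transcript and which spans 12844 bases of the genome, was at background on all 3 arrays.

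PAX3, the paired-box factor of neural crest and melanoblasts, gave different directions with different probes. Probe A_23_P209499 gave 2887 a.u. (OM), 3501 a.u. (MB) and 2878 a.u. (NM), which is 1.24-fold higher on MB than on OM (log2 ratio 0.31, technical SD 0.07). Probe A_23_P502706 gave 948 a.u. (OM), 580 a.u. (MB) and 722 a.u. (NM), and was 1.60-fold lower on MB than on OM (−0.67, SD 0.08). Probe A_24_P362595 gave 842, 479 and 643 a.u. on OM, MB and NM, and was 1.72-fold lower on MB (−0.78, SD 0.08). Both of the latter had OM highest and MB lowest, with NM between, while the first had MB highest.

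The probes that were lower in MB lie side by side and overlap by 5 bases, and the probe that was higher lies 94120 bases away toward the 3′ end of the gene. The array lists 4 RefSeq accessions for the first probe and 3 for each of the others, with 0 in common. These lists are the array's annotation, and the probe sequences were not matched to transcripts. Among the 3777 known genes with at least 2 probes above 100 a.u. on both OM and MB, the median spread between a gene's probes was 0.17 in log2 MB over OM. PAX3, with 3 probes, had a spread of 1.09, and 2.83% of these genes (107) had a spread at least as large. A spread of highest minus lowest can only grow with more probes, and the number of probes was not matched. Probes of 1 gene with log2 ratios beyond 0.3 in opposite directions occurred in 3.18% of genes (120). Whether the probes of PAX3 follow different transcripts was not tested. The overlapping probes are shown with their shared bases in capitals.
PAX3 A_23_P502706, chr2:222984521-222985806, minus strand: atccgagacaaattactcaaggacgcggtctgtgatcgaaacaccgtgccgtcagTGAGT
PAX3 A_24_P362595, chr2:222984466-222984525, minus strand: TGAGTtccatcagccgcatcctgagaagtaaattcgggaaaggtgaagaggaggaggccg
The span of the former is 1286 bases, so it crosses an exon junction.

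**Figure D2:**
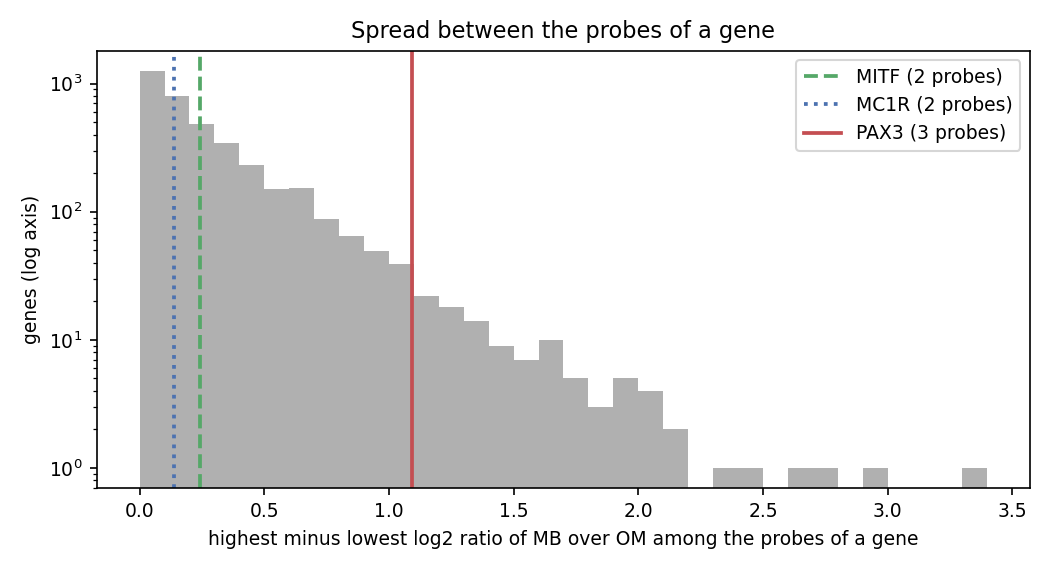
Number of known genes (log axis) by the spread between their probes, the highest minus the lowest log2 ratio of MB over OM, for 3777 genes with at least 2 probes above 100 a.u. on both arrays. Lines mark MC1R (0.14, 2 probes), MITF (0.24, 2 probes) and PAX3 (1.09, 3 probes). The third, dimmer probe of MITF is left out. The probes of PAX3 lie much farther apart than the probes of MC1R and MITF used here.

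The receptors MC1R and EDNRB were highest in MB. MC1R, the melanocortin receptor whose signal raises MITF and with it pigment synthesis, was highest in MB and lowest in NM on both of its probes. Probe A_23_P329271 gave 14913 a.u. (OM), 22826 a.u. (MB) and 8054 a.u. (NM). MB was 1.57-fold above OM (log2 ratio 0.65, technical SD 0.06) and 2.54-fold above NM (1.35, SD 0.06), and OM was 1.62-fold above NM. Probe A_23_P66095, in the coding sequence, gave 578 a.u. (OM), 972 a.u. (MB) and 307 a.u. (NM), or 1.72-fold for MB over OM and 2.84-fold for MB over NM. Both probes gave the same order, and their log2 ratios of MB over OM differed by 0.14. In RNA from a whole culture, more cells of a kind and more RNA per cell cannot be told apart. The gene TUBB3 begins 953 bases beyond the end of MC1R in the RefSeq table. Its 2 probes were not highest in MB, with log2 ratios of −0.10 and −0.12 between MB and OM. Like those of MC1R they were lowest in NM. Their log2 ratios were 0.18 and 0.17 between MB and NM, and −0.27 and −0.29 between NM and OM. Whether the signals of the 2 genes are linked was not tested.

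EDNRB, the endothelin receptor that migrating melanoblasts need, had the largest ratio of MB over OM among the pigment genes. Probe A_23_P2831 gave 308 a.u. (OM), 996 a.u. (MB) and 381 a.u. (NM). MB was 3.31-fold above OM (log2 ratio 1.73, technical SD 0.08) and 2.34-fold above NM (1.23, SD 0.07), and NM was 1.41-fold above OM (0.50, SD 0.08). MB thus stood apart from both monolayers, and NM lay nearer to OM. The second probe, A_24_P330263, was well above background only on MB, at 170 a.u., against 12.9 on OM and 17.4 on NM. It was at least 8.33-fold higher on MB than on OM and at least 5.24-fold higher than on NM. Of the 41000 probes, 1058 were well above background only on MB and 83 of these exceeded 100 a.u., this probe among them. Coding probes of both receptors are shown because the called differences are in these 2 genes. For MC1R the call was counted on the brighter probe, A_23_P329271, and not on the one shown.
MC1R A_23_P66095, chr16:88513505-88513564, plus strand: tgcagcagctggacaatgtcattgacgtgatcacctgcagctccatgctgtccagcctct
EDNRB A_23_P2831, chr13:77372007-77372066, minus strand: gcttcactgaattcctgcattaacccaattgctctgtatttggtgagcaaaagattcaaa

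**Figure D3:**
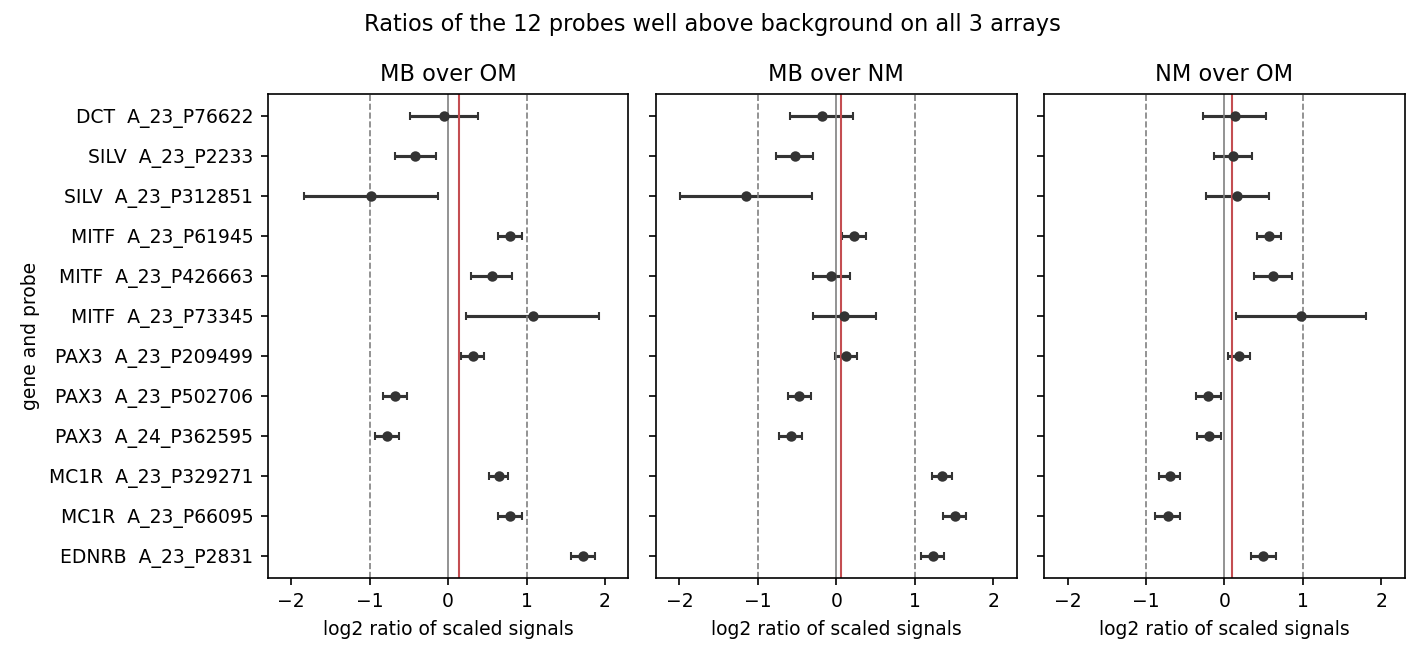
Log2 ratios of scaled signals for the 12 probes well above background on all 3 arrays, in the panels MB over OM, MB over NM and NM over OM. Bars are 2 technical SDs to either side, dashed lines mark 2-fold, and the red line is the median of all known genes measured. EDNRB (1.73) lies beyond 2-fold in MB over OM and MC1R (1.35 and 1.51) and EDNRB (1.23) in MB over NM, and the probes of PAX3 fall on both sides of 0 in MB over OM.

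A difference was called at 2-fold or more, with the brighter array well above background and above 100 a.u., taking each gene by its probe with the highest mean signal. For MB over OM, 5 of the 10 genes (MITF, SILV, MC1R, PAX3 and EDNRB) were bright enough to be called, and 1 of them, EDNRB, was higher in MB. Over the 11810 known genes bright enough, 6.62% were higher and 3.72% lower in MB. For MB over NM, 2 of the 5, MC1R and EDNRB, were higher in MB, where 11.1% of all known genes were higher and 9.2% lower. For NM over OM none of the 5 was called, against 4.62% higher and 3.04% lower over all known genes. By brightest probe none of the 5 passed the 5-fold used in the study in any comparison. At that threshold 1.1% of known genes had MB above OM and 0.711% had MB below it, 1.6% had MB above NM and 1.54% below, and 0.667% had NM above OM and 0.163% below. With 5 genes to be called, these counts are too few to set the pigment genes apart from the background share. The comparisons MB over OM and MB over NM share the MB array, so the values of a gene in them are not independent.

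Over the 7 genes measured on at least 1 array of a pair, the median ratio of MB over OM was 0.37 on the log2 scale, which is the ratio of the dim MLANA, with 0.14 for 13670 known genes. Of the 7 genes 5 were higher in MB, as were 61.6% of the known genes. For MB over NM the median was 0.23 (0.05 for all known genes) and for NM over OM it was 0.13 (0.10). The scale moved these values. With spike-in scaling the median of all known genes in MB over OM went from 0.14 to −0.17, and the share of 2-fold calls that were higher in MB went from 64.0% to 36.2%, with 46.6% by the 75th percentile and 51.9% by quantile normalization. In MB over NM that share was 54.8%, with 67.2% without scaling and 41.8% by spike-ins, and in NM over OM it was 60.3%, with 39.2% without scaling and 45.1% by spike-ins. By the brightest probe, EDNRB and MC1R were higher and SILV lower in MB than in either monolayer under all 6 scalings run. MITF was higher in MB than in OM under all 6, but its log2 ratio of MB over NM went from 0.23 to 0.044 by quantile normalization and 0.056 by spike-ins, within 1 technical SD (0.07). In NM over OM the ratios of DCT, PAX3, SILV and MLANA changed sign in at least 1 scaling, and so did that of PAX3 in MB over NM.

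Nearest to EDNRB in pattern, by Euclidean distance in log2 MB over OM and log2 NM over OM, were CLEC3B, PANK1, FBXO2, PCDHB8 and ANXA1, at distances of 0.06 to 0.16. Their folds of MB over OM ranged from 2.96 (ANXA1) to 3.42 (PANK1). The distance rests on 3 arrays, and 11 of the 12471 other genes well above background on all 3 lay within 0.2.

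The other melanosome and pigment genes were called in both directions. Of a list of 34, 31 had a probe, 26 were bright enough to be called, 3 were 2-fold higher and 1 lower in MB than in OM, and 2 were higher and 1 lower in MB than in NM. All known genes had 6.62% higher and 3.72% lower against OM and 11.1% higher and 9.2% lower against NM. The list's median log2 ratio was 0.16 against OM (0.14 for all known genes) and 0.27 against NM (0.05). OCA2, a melanosome membrane protein needed for normal tyrosinase activity, gave 211 a.u. (OM), 423 a.u. (MB) and 254 a.u. (NM), and was 2.05-fold above OM, with a log2 ratio of 0.58 over NM. CTNS, the lysosomal and melanosomal cystine exporter, was 2.32-fold higher in MB than in OM (489, 1107 and 588 a.u. on OM, MB and NM), and LYST, which controls the size of lysosome-related organelles, was 2.06-fold higher (858, 1728 and 1285 a.u.). Against NM, CNO, a subunit of the BLOC-1 complex that sorts cargo to melanosomes, was 2.13-fold higher in MB, and MYO5A, the motor that carries melanosomes, 2.03-fold higher. SLC3A2, the heavy chain of amino acid transporters, was 2.34-fold lower in MB than in OM and 3.15-fold lower than in NM.

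As for the enzymes, several pigment genes outside the 10 were at the limit of detection. The transporter SLC45A2 gave 39.4 a.u. (OM), 27.8 a.u. (MB) and 17.7 a.u. (NM), where it was not well above background. GPNMB, a relative of SILV, gave 24.4 and 33.7 a.u. on OM and MB and was not well above background on NM. TRPM1, a cation channel of melanocytes, was at background in all 3 populations.

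Of the ligands, receptors and factors around MITF, SOX5, LEF1, TBX2 and TFAP2B were among the genes past 2-fold in MB against both OM and NM. Of 28 genes with a probe 20 were bright enough to be called against either monolayer, and 5 were higher and 1 lower in MB than in OM, while 8 were higher and 1 lower in MB than in NM. The shares over all known genes were 6.62% higher and 3.72% lower against OM and 11.1% and 9.2% against NM. On the log2 scale their median was 0.53 against OM and 0.63 against NM, where all known genes had 0.14 and 0.05. SOX10, which drives MITF and DCT transcription, gave 6254 a.u. (OM), 9382 a.u. (MB) and 4887 a.u. (NM). Its MB signal exceeded OM by 1.54-fold and NM by 1.72-fold, under the 2-fold of a call. KIT, the receptor of melanoblast survival, was at background in all 3 populations. Among SOX factors, SOX9 gave 6465, 9405 and 3023 a.u. on OM, MB and NM, with MB 2.79-fold above NM, and SOX5, which opposes SOX10 at melanocyte promoters, was 3.69-fold higher in MB than in OM and 5.45-fold higher than in NM, at 1007, 3633 and 598 a.u.

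LEF1, the factor through which Wnt signals reach the MITF promoter, gave 21039 a.u. (OM), 60708 a.u. (MB) and 18967 a.u. (NM), with MB 2.95-fold above OM and 2.87-fold above NM, and its 2 probes passed 2-fold against either monolayer. The T-box factor TBX2, a described MITF target, exceeded OM by 2.47-fold and NM by 4.89-fold, and TBX3 was 2.96-fold above NM. TFAP2B, of the AP-2 family of neural crest factors, gave 72.8, 223 and 31.9 a.u. on OM, MB and NM and was 3.13-fold above OM, with NM not well above background and at least 6.29-fold lower. POU3F2 (BRN2), a factor described as opposing MITF in melanoma, gave 247 a.u. (OM), 348 a.u. (MB) and 100.1 a.u. (NM), so MB was 3.12-fold above NM but 1.44-fold above OM. The single gene lower in MB was ATF4, the factor of the amino acid response, at 2.88-fold below OM and 3.65-fold below NM.

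Described MITF targets outside pigment synthesis were called in both directions, as known genes were overall. Of 39 genes 33 were bright enough, with 4 higher and 2 lower in MB than in OM and 6 higher and 3 lower in MB than in NM, beside 6.62% higher and 3.72% lower (OM) and 11.1% higher and 9.2% lower (NM) of all known genes. Their median log2 ratio was 0.34 against OM (0.14 for all known genes) and −0.17 against NM (0.05). PLA1A, a phospholipase, exceeded OM by 6.34-fold and NM by 10.1-fold, at 354, 2195 and 195 a.u. on OM, MB and NM. PPARGC1A, the coactivator of mitochondrial genes, exceeded OM by 5.29-fold and NM by 2.39-fold. SEMA6A, a semaphorin, exceeded them by 2.75-fold and 4.27-fold, and SORT1, the sorting receptor sortilin, 2.15-fold and 3.89-fold.

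GALNT3, an enzyme of mucin-type glycosylation, and C21orf91 were called only against NM, at 2.82-fold and 2.61-fold higher in MB. Of the targets that were lower in MB, ACP5, an acid phosphatase, was 4.45-fold below OM and 2.95-fold below NM. GPRC5B, an orphan receptor, was 3.17-fold and 3.63-fold lower. WIPI1, an autophagy protein, was 3.91-fold lower than in NM and 1.74-fold lower than in OM. Not every probe of these genes passed, with 1 of 3 for SEMA6A and 1 of 2 each for PPARGC1A, GALNT3 and MYO5A. In MB over OM and MB over NM, the measured genes named from these lists kept their direction under all 6 scalings, while in NM over OM LEF1 and ATF4, for example, changed sign. Not all called genes stayed past 2-fold. In MB over OM the lowest log2 ratio was 0.73 for OCA2, 0.74 for LYST, 0.91 for CTNS, 0.80 for SORT1 and 0.998 for TBX2. In MB over NM it was 0.92 for CNO and 0.85 for MYO5A.

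**Figure D4:**
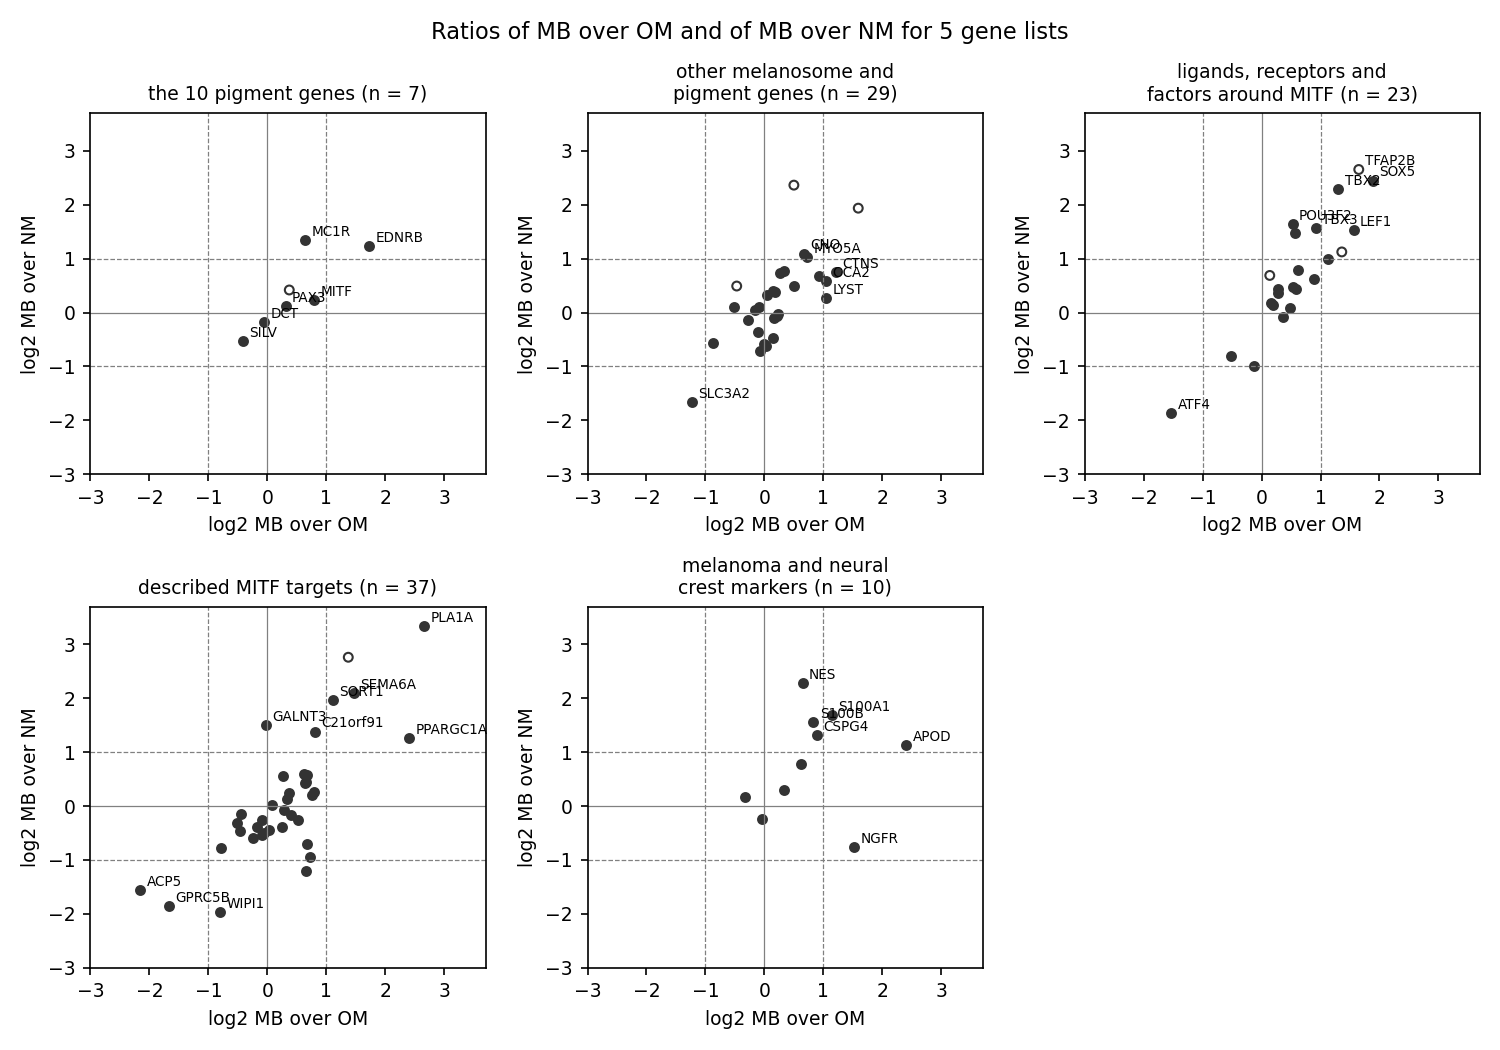
Log2 ratio of MB over OM (horizontal) against that of MB over NM (vertical) for each measured gene of 5 lists, by its brightest probe. Filled points are well above background on all 3 arrays and open ones are not, dashed lines mark 2-fold, and both axes share the MB array. EDNRB, SOX5, LEF1, TBX2 and PLA1A are among the points beyond 2-fold on both axes at the upper right. SLC3A2, ATF4, ACP5 and GPRC5B lie beyond 2-fold at the lower left.

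Markers of the lineage were present. All 10 markers of melanoma or neural crest lineage were well above background on all 3 arrays. At 2-fold, 3 were higher in MB than in OM and 5 higher than in NM, and none was lower. By direction alone, 8 were higher in MB than in OM and 8 higher than in NM. MCAM and VIM were lower in MB than in OM under all 6 scalings. Their log2 ratios were −0.63 to −0.33 for MCAM and −0.35 to −0.04 for VIM. Of all known genes 6.62% were higher and 3.72% lower against OM, and 11.1% higher and 9.2% lower against NM. The markers' median log2 ratio was 0.74 against OM and 0.96 against NM, with 0.14 and 0.05 for all known genes. S100B gave 25155 a.u. (OM), 43760 a.u. (MB) and 13307 a.u. (NM), and S100A1, of the same calcium-binding family, exceeded OM by 2.21-fold and NM by 3.21-fold. The neural crest marker NES gave 62112, 95022 and 17473 a.u. and was 4.88-fold above NM, CSPG4, a proteoglycan of melanoma cells, 2.48-fold, and the lipid carrier APOD exceeded OM by 5.29-fold and NM by 2.20-fold. NGFR, the neural crest stem cell receptor, was 2.88-fold higher in MB than in OM and highest in NM, at 123, 346 and 525 a.u. on OM, MB and NM. Not all of these stayed past 2-fold under the 6 scalings. The lowest log2 ratio was 0.84 for S100A1 in MB over OM and 0.97 for APOD in MB over NM.

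Markers of other cell types were in part at background, 8 of 22 on all 3 arrays. Of 8 keratinocyte markers, 5 (KRT5, KRT1, DSG3, DSC3 and CDH1) were at background in all 3 populations, TP63 was well above background on OM alone, and KRT10 was bright throughout. KRT14 gave 213, 373 and 118 a.u. on OM, MB and NM, with MB 2.85-fold above NM. Of 8 blood cell markers, PTPRC and HBB were at background in all 3 populations and 5 were well above it in each, while CD68, 1 of the 5 and also a lysosomal protein of other cells, was 2.67-fold lower in MB than in OM and 3.19-fold lower than in NM. Of 6 endothelial markers, CDH5 was at background throughout, KDR was well above it on OM alone (26.7 a.u.), PECAM1 on MB alone (87.7 a.u.) and TEK (203 a.u.) and CLDN5 (101 a.u.) on NM alone. TEK was at least 11.7-fold and CLDN5 at least 5.78-fold lower in MB than in NM. VWF gave 185, 390 and 95.6 a.u. on OM, MB and NM, with MB 2.15-fold above OM and 3.66-fold above NM. Across the 6 scalings, the lowest log2 ratio of VWF in MB over OM was 0.80, under 2-fold. Summed over each list, scaled signals on OM, MB and NM were 39442, 40697 and 37398 a.u. for keratinocyte markers, 5094, 2217 and 6235 for blood cell markers and 260, 528 and 502 for endothelial markers. The sums include signals at background, and KRT10 makes up most of the keratinocyte sum. The part of all these markers in the ratios of the pigment genes was not tested.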

How the data were processed

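Total RNA of 3 populations was hybridised to 3 Agilent arrays on 1 slide. The authors deposited the intensity of each spot from Feature Extraction 9.5.3.1 on a linear scale, not scaled between arrays: the background taken off was a surface fitted over the array (43376 of 43376 spots on each), and 7409 (OM), 7000 (MB) and 9481 (NM) spots hold a surrogate value. The value table matched these intensities within 0.1%.

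Control and outlier spots (77, 79 and 81) were left out, spots of a probe averaged, and arrays divided by the mean of 3 housekeeping genes, each a probe printed in 10 spots. The study's methods say HSP90, and HSP90AA1 was taken. Relative to OM, the divisors were 0.978 (MB) and 0.877 (NM). Known genes have an NM_ accession (17084). With a dimmer array at background, folds are lower bounds: the dimmer value was raised to the lowest signal well above background on that array, unless already higher. The number of arrays limits the precision, and no test was run.

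The genes and lists were chosen with earlier results of these data known. Named were all 10 genes, list genes past 2-fold against OM or NM (at most 6 in each direction), and 8 genes whatever their values, such as SOX10. Markers and lists followed the same rule.

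Alternatives were 75th percentile, quantile, spike-in (7 probes), geometric mean and no scaling, normexp (limma 3.58.1, R 4.3.3, offset 50), no background subtraction, outlier spots kept, the median over probes, both arrays well above background, and the value table. Python 3.11.15, numpy 2.4.6, pandas 2.3.3 and matplotlib 3.10.9 were used. On simulated arrays for MB over OM with 17075 known genes, all 50 genes raised 4-fold and all 50 lowered as much were called, as were 4 of 11431 unchanged genes. Both simulated arrays were made from the OM array with only the noise between spots added, and the changed genes were bright ones. These counts therefore leave out the variation between cultures and arrays and do not cover changes of dim genes.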

Additional observations from a re-analysis of the deposited data

How the results depend on the processing

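No paired analysis was possible because each population has 1 array. The counts of pigment genes past 2-fold were the same under all 11 alternatives. They were 1 for MB over OM, 2 for MB over NM and 0 for NM over OM. The count of genes well above background on all 3 arrays (6) could not change. It rests on the Feature Extraction mark, which the alternatives leave as it is. The median log2 ratio of the pigment genes shifted as follows where it shifted by more than 0.075 to 0.079, the technical SD of 1 middle gene, which is no error of the median. In MB over OM the median gene is MLANA, whose own SD (0.56) exceeds the shifts there. For MB over NM (0.23) it was 0.11 by the 75th percentile, 0.055 by quantile normalization, 0.38 without scaling, 0.056 by spike-ins, 0.13 by the geometric mean of the housekeeping genes, 0.11 by normexp, 0.11 without background subtraction and 0.10 by the median over probes. For MB over OM (0.37) it was 0.18 by the 75th percentile and 0.066 by spike-ins. For NM over OM (0.13) it was −0.059 without scaling and −0.0071 by spike-ins. Marker genes past 2-fold in MB over OM went from 5 to 3 by the 75th percentile and to 3 by spike-ins. Over all known genes, 2-fold calls in MB over OM were 782 higher and 439 lower, against 445 and 783 by spike-ins, and in NM over OM 540 and 355, against 350 and 543 without scaling. With the median over its probes PAX3 was −0.67 in MB over OM, against 0.31 by its brightest probe. With 1 array per population, none of these alternatives bears on variation between cultures. Signals under the background bounds limit TYR, TYRP1 and GPR143, and the technical SD at 20 to 50 a.u., near 0.40 for a single spot, limits MLANA.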
